A study of Mus musculus with 16 samples.

Results

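The 38 genes described here encode cytosolic and mitochondrial protein-folding factors of the mouse: 5 HSP70 genes, 3 HSP110 genes, 3 HSP90 genes, the mitochondrial chaperonin pair HSP60 and HSP10, 6 DNAJ genes, 2 BAG genes, 2 heat shock factors, 7 cochaperones of HSP90 and HSP70, and 8 subunits of the cytosolic chaperonin CCT. They were taken by symbol, outside the endoplasmic reticulum, and all 38 were found among the 49585 genes of the files. The choice was made with earlier results of these data known. RNA was measured in CD45+ cells, the cells of the blood lineages, from bone marrow and spleen of 12-week-old C57BL/6J mice that carried Dbh-Cre. A viral vector that needs Cre had been injected on both sides of the ventrolateral medulla (VLM), a brainstem region, so that the driver limits it to cells with Dbh, which marks noradrenaline and adrenaline neurons. The DbhVLM-hM3Dq groups received hM3Dq, a designer receptor activated by clozapine N-oxide (CNO), fused to the red fluorescent protein mCherry, and the DbhVLM-mCherry groups received mCherry alone. Both virus groups were given CNO and cells were taken 4 h later, with 4 libraries from each virus and tissue that the submitters describe as biological replicates.

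HSP70 proteins hold unfolded segments of other proteins in a cycle driven by ATP. DNAJ proteins bring the clients and start the hydrolysis of ATP, and HSP110 and BAG proteins exchange the nucleotide so that clients are released. HSP90 takes clients such as kinases and steroid hormone receptors from HSP70 with the help of cochaperones, while CCT folds actin and tubulin in a closed chamber. Heat shock factor 1 (HSF1) induces many of these genes by binding heat shock elements, which are inverted repeats of the unit GAA in their promoters.

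Such elements are shown first because Hsph1, the member with the largest change in both tissues, holds one near its start. Windows from 250 bases before to 50 bases after each start site (RefSeq, GRCm38.p6) were at hand for 31 of the 38 genes. Hspa8, Hspa9, Hsp90aa1, Hsp90ab1, Hsf1, St13 and Cct4 had no window and were not searched. A run of 3 units, spelled GAANNTTCNNGAA or TTCNNGAANNTTC and read on both strands, was found for 5 of these 31 genes and for 179 of all 27025 genes (0.662%). A run of 2 units, GAANNTTC or TTCNNGAA, which every longer run also holds, was found for 15 of the 31 and for 17.0% of all genes. The 5 stretches with 3 or more units are printed 5′ to 3′ on the strand of the gene, with the units in capitals.
Hsph1, chr5:149636287-149636316, minus strand: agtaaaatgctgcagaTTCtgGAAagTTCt
Chordc1, chr9:18292260-18292289, plus strand: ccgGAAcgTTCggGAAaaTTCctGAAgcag
Hspd1, chr1:55088053-55088082, minus strand: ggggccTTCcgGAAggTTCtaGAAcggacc
Hspe1, chr1:55088053-55088082, plus strand: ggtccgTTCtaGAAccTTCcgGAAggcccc
Dnajb6, chr5:29735844-29735873, plus strand: agctccgaGAAtcTTCcgGAAcgctagacc
Chordc1 holds 5 units across its start site. Hspd1 and Hspe1 are neighbours transcribed in opposite directions, and their stretches are the same 30 bases with 4 units, read on the 2 strands. The run of Hsph1 lies after its start site, from base 36 to base 48 when the start base is counted as 0. Hsph1 has a second annotated start site, from which the same run begins at base 15. A match says only that these letters are present, and no binding was measured here.

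The libraries held 11.35 to 16.96 megafragments assigned to genes. The errors given below come from the spread between libraries. Levels are given as FPKM, the fragments on a gene's exons divided by the length of those exons and by the library's depth. Ptprc, which encodes CD45, was present in all 16 libraries, at 27.8 to 44.8 FPKM in bone marrow and, in spleen, at 66.2 to 81.5 FPKM in hM3Dq and 86.9 to 93.5 FPKM in mCherry libraries. Summed FPKM of 10 neutrophil genes was 37100 to 53400 in bone marrow and 1500 to 4480 in spleen, and that of 8 mature B cell genes 170 to 292 and 1210 to 1750. All cells of a tissue were pooled in each library, so fewer cells of a type and less RNA per cell cannot be told apart. In spleen, hM3Dq replicate 5 had the highest composition-scaled level of its group in 28 of the 36 members examined, and replicate 6 the lowest in 22.

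In the 4 bone marrow mCherry libraries Hsp90ab1, the constitutive cytosolic HSP90, stood highest at 274 ± 21.8 FPKM (SD, n = 4), followed by Hspa8, the constitutive HSP70, at 158 ± 9.99 FPKM and the CCT subunit gene Cct2 at 84.3 ± 6.15 FPKM. The libraries of Hsp90ab1 and Hspa8 did not overlap, nor did those of Hspa8 and Cct2, whereas Cct2 overlapped with the next gene, Hsp90aa1, at 72.9 ± 7.81 FPKM. Spleen mCherry libraries had the same top 3, with 320 ± 28.1, 155 ± 14.9 and 101 ± 7.17 FPKM. Hsph1, Hspa4l, Bag3, Dnajb4 and Hsf2 lay between 2.17 and 7.35 FPKM on average in the mCherry groups of both tissues. Stress-inducible HSP70 came last. Hspa1a had 1 to 11 reads and Hspa1b 4 to 17 reads per library, and 60.3% and 62.3% of their 50-base stretches occur in transcripts of other genes, mainly of each other, so the counting could split them. Hspa1a was too low to be tested in any comparison and Hspa1b too low in the comparison of hM3Dq and mCherry within spleen.

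Hsph1 was lower in hM3Dq libraries of both tissues. It encodes an HSP110 protein, a nucleotide exchange factor of HSP70 (ENSMUSG00000029657, chromosome 5, 149614287 to 149636376, minus strand, GRCm38). In bone marrow the hM3Dq libraries stood at 2.27, 1.79, 2.08 and 2.09 FPKM, against 4.03, 4.04, 3.24 and 3.79 FPKM in mCherry libraries. Every hM3Dq library lay below every mCherry library. The difference was a log2 change of -0.91 ± 0.12 (standard error; 1.88-fold lower, adjusted p = 0.00698, limma). In spleen the values were 5, 3.58, 4.05 and 3.85 FPKM against 8.49, 7.46, 6.75 and 6.71 FPKM, again with no overlap. The log2 change there was -0.84 ± 0.13 (1.79-fold lower, adjusted p = 0.0107). Hsph1 kept its call in each of the 8 fits per tissue that left out a library, with adjusted p from 0.00997 to 0.0317 in bone marrow and from 0.00618 to 0.0392 in spleen. Its reads numbered 180 to 885 per library, and none of its 50-base stretches occurs in another gene's transcripts.

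The related HSP110 genes did not pass the test. Hspa4, the HSP110 gene with the highest FPKM here, changed by -0.08 ± 0.08 in bone marrow and -0.13 ± 0.05 in spleen on the log2 scale, and Hspa4l by -0.12 ± 0.11 and -0.23 ± 0.14. The ratio of Hsph1 to Hspa4, in FPKM of the same library, was therefore 0.0582 to 0.0801 in bone marrow hM3Dq and 0.121 to 0.138 in bone marrow mCherry. In spleen it was 0.108 to 0.162 against 0.201 to 0.247. The ratios of the virus groups overlapped in neither tissue.

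**Figure D1:**
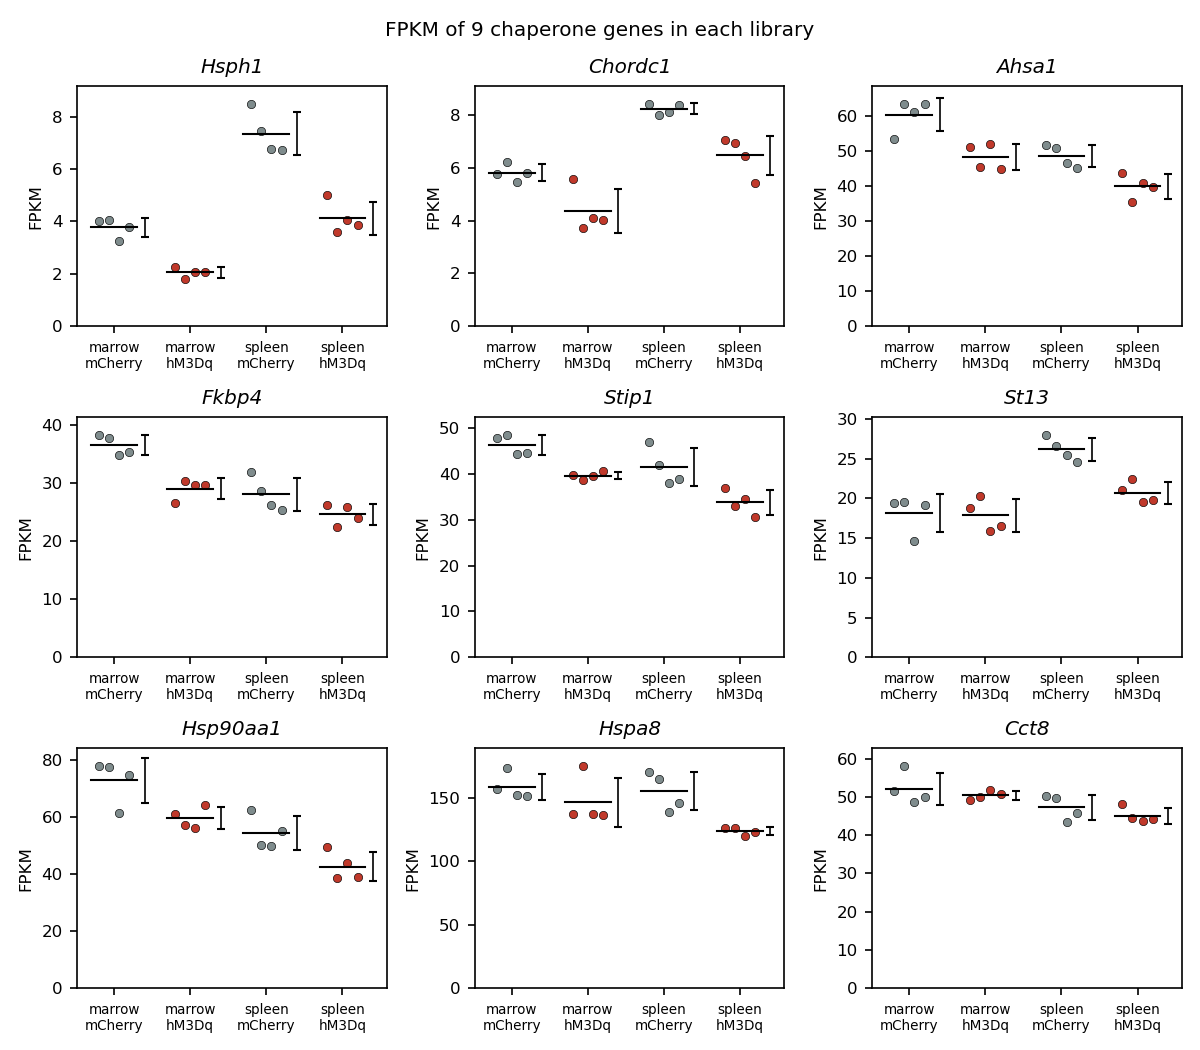
FPKM of 9 chaperone genes in each of the 16 libraries (points), with the mean of each group of 4 (line) and its SD (bar). Hsph1 lies lower in every hM3Dq library than in every mCherry library of the same tissue, whereas the CCT subunit gene Cct8 overlaps in both tissues.

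Across the 37 genes tested in bone marrow, 3 were called at an adjusted p below 0.05 and all 3 were lower: Hsph1, Ahsa1 and Fkbp4. That is 8.11% of those tested, where 1.71% of all 16095 genes were called lower, 3.14% higher and 4.85% in either direction. Changes were below 0 for 29 of the 37 (78.4%), against 50.7% of all genes, and the median change was -0.12 on the log2 scale, against a median of 0 to 2 decimals over all genes. With FPKM as deposited, without scaling for composition, the median was -0.04 against 0.06 over all genes. At an unadjusted p below 0.05 there were 9 lower genes and none higher, where 11.3% of all genes were lower and 12.4% higher at that level. The 9 are 24.3% of those tested. Every hM3Dq library lay below every mCherry library for 4 genes, Hsph1, Ahsa1, Stip1 and Fkbp4 (10.8% against 3.81% of all genes), and above for 2, Dnajb6 and Cct2 (5.41% against 12.2%).

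In spleen 36 genes were tested and 4 were called, all lower: Hsph1, Hspa8, St13 and Chordc1. This is 11.1%, where 4.42% of all 17076 genes were called lower, 3.72% higher and 8.14% in either direction. Changes were below 0 for 30 of 36 (83.3%, against 51.1% of all genes), with a median of -0.12 against -0.01 over all genes. At an unadjusted p below 0.05 there were 11 lower genes (30.6%, against 13.7% of all genes) and 1 higher gene, Hsf2 (2.78%, against 12.8%). The libraries did not overlap for 11 lower genes (30.6% against 8.92%) and for Hsf2, which was higher (2.78% against 9.35%). Without hM3Dq replicate 5, 8 of the 36 genes (22.2%) were called, where 10.2% of all genes were called in that fit. That library had the highest levels of its group for most members, so leaving it out widens a fall by itself. In the other fits that left out a library 1 to 3 members were called (2.78% to 8.33%), where 2.44% to 5.11% of all genes were called.

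The tissues share no library, though the labels do not say whether marrow and spleen came from the same mice. Of the 36 genes tested in both, 26 (72.2%) had changes below 0 in both, as had 36.2% of the 15378 genes tested in both. Changes were above 0 in both for 4 (11.1%, against 34.6% of all genes): Hspa9, Dnajb6, Hsf2 and Cct2. The 7 genes lower at an unadjusted p below 0.05 in both tissues (19.4%, against 4.90% of all genes) were Hsph1, Hsp90aa1, Hspd1, Ahsa1, Chordc1, Stip1 and Ptges3.

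**Figure D2:**
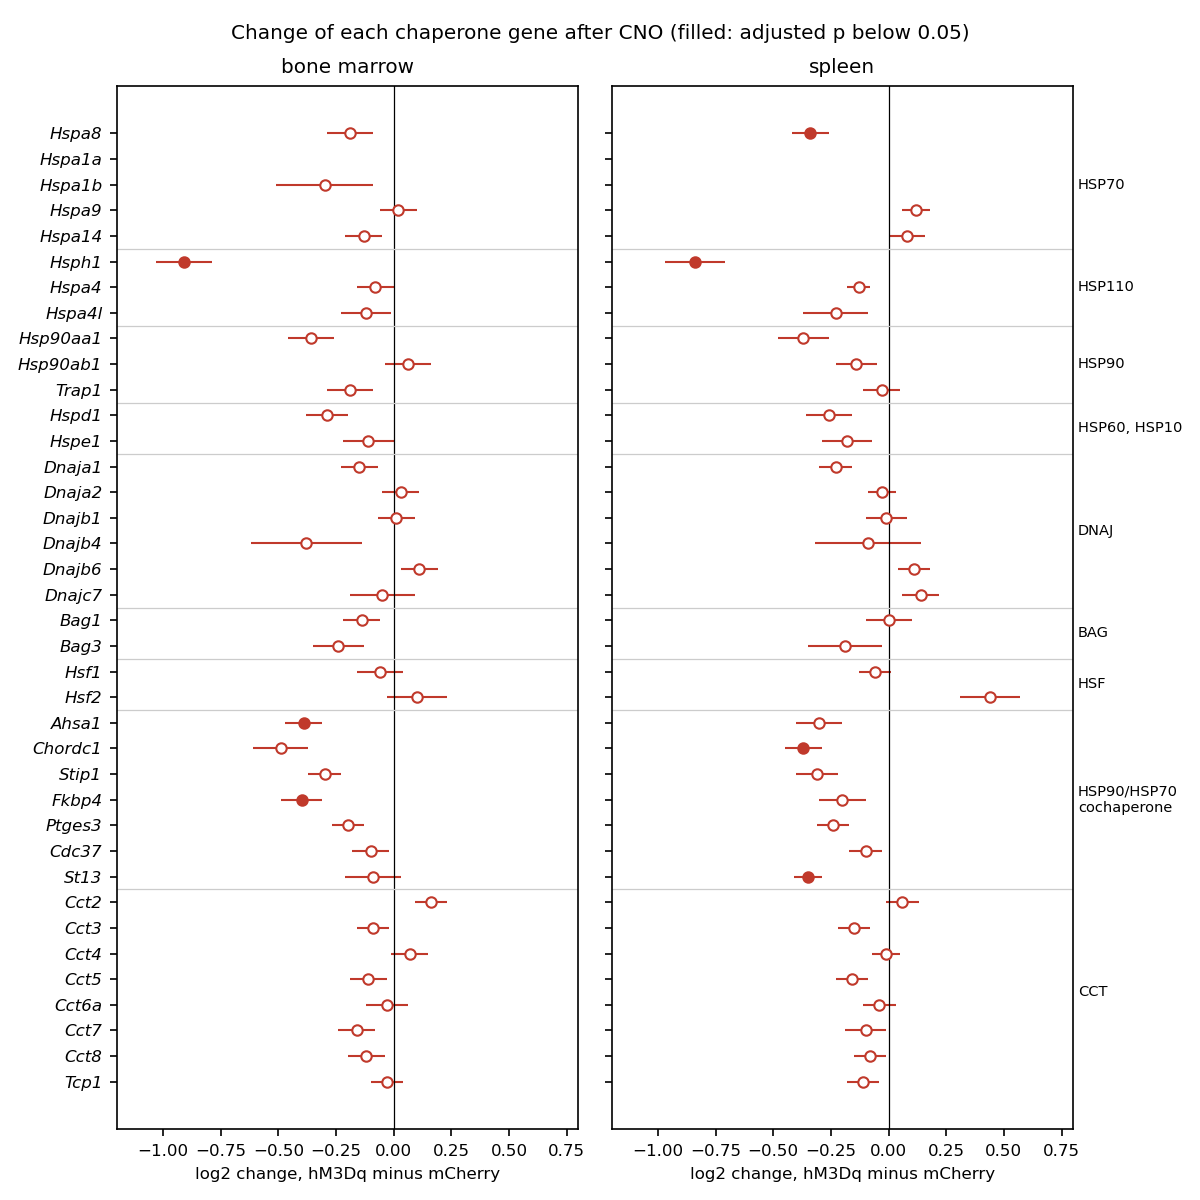
Log2 change of each chaperone gene (hM3Dq minus mCherry, points, with the standard error as bars) in bone marrow and in spleen, ordered by class, with filled points for an adjusted p below 0.05. Hsph1 lies farthest from 0 in both tissues at -0.91 and -0.84, all 7 cochaperones lie below 0 in both, and the CCT subunits lie between -0.16 and 0.16.

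Among the classes listed here, the 7 HSP90 and HSP70 cochaperones had the lowest median in both tissues, -0.30 in each. All 7 had changes below 0 in each. This holds for the 7 listed and not for HSP90 cochaperones in general. The members and lists were chosen with earlier results of these data known, so the split between the 7 and the others is no independent result. Other HSP90 cochaperone genes had a median of -0.04 in bone marrow, with 14 of 22 below 0. In spleen their median was 0 to 2 decimals, with 12 of 23 below 0. At an unadjusted p below 0.05, 4 of them were lower and 2 higher in bone marrow, and 1 lower and 5 higher in spleen. Ahsa1, which encodes the activator of the HSP90 ATPase (chromosome 12, 87266479 to 87273998, plus strand), fell in bone marrow. Its hM3Dq libraries stood at 51.1, 45.4, 51.9 and 44.8 FPKM and its mCherry libraries at 53.5, 63.3, 61.1 and 63.4 FPKM, without overlap (log2 change -0.39 ± 0.08, adjusted p = 0.0304). In spleen its libraries did not overlap either, at 35.3 to 43.8 against 45 to 51.6 FPKM, but the change missed the threshold (-0.30 ± 0.10, adjusted p = 0.0904). The bone marrow call was lost without hM3Dq replicate 6 or 8 or mCherry replicate 2, 3 or 4, with adjusted p up to 0.0943, and without scaling for composition (-0.32, adjusted p = 0.0724).

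Fkbp4, which encodes FKBP52, an HSP90 cochaperone of steroid hormone receptors (chromosome 6, 128429735 to 128438677, minus strand), also fell in bone marrow. Its libraries stood at 26.5, 30.4, 29.7 and 29.6 FPKM against 38.3, 37.7, 34.8 and 35.4 FPKM. The groups did not overlap (-0.40 ± 0.09, adjusted p = 0.0323), but the call held in 1 of the 8 fits that left out a library, that without hM3Dq replicate 7 (adjusted p = 0.0488 to 0.0891 over the 8). In spleen its groups overlapped, at 24.6 ± 1.75 against 28.0 ± 2.88 FPKM (-0.20 ± 0.10, adjusted p = 0.231). Fkbp5, the gene of its close relative FKBP51, which is not among the 38 and which glucocorticoids are known to induce, rose by 2.32 ± 0.08 in bone marrow (adjusted p = 1.92e-06) and 2.87 ± 0.10 in spleen (adjusted p = 7.33e-06). In FPKM, Fkbp4 exceeded Fkbp5 in both mCherry groups, where Fkbp5 stood at 10.3 ± 0.237 and 7.66 ± 0.459, and lay under it in both hM3Dq groups, where Fkbp5 stood at 54.6 ± 4.38 and 57.6 ± 6.39.

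Chordc1, which encodes the HSP90 cochaperone CHORDC1 and holds the longest heat shock element among the promoters above, fell in spleen (chromosome 9, 18292125 to 18317442, plus strand). Its hM3Dq libraries stood at 7.06, 6.94, 6.43 and 5.43 FPKM and its mCherry libraries at 8.42, 7.99, 8.11 and 8.38 FPKM, all above them (-0.37 ± 0.08, adjusted p = 0.035). That call held without hM3Dq replicate 5 only (adjusted p = 0.0221) and was lost in the other 7 such fits, with adjusted p of 0.0593 to 0.0867, and without scaling for composition (-0.35, adjusted p = 0.0598). In bone marrow its libraries stood at 5.59, 3.72, 4.11 and 4.04 FPKM against 5.78, 6.22, 5.47 and 5.8 FPKM. There hM3Dq replicate 5 overlapped the mCherry range and the change missed the threshold (-0.49 ± 0.12, adjusted p = 0.0545). Of the fits that left out a library, the change passed only without that one (adjusted p = 0.0198, up to 0.132 in the others).

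St13, which encodes the HSP70-interacting protein HIP, fell in spleen (chromosome 15, 81363669 to 81400077, minus strand). Its libraries stood at 21.1, 22.5, 19.5 and 19.8 FPKM against 28, 26.6, 25.5 and 24.6 FPKM, without overlap (-0.35 ± 0.06, adjusted p = 0.0163). The call was lost without hM3Dq replicate 8 (adjusted p = 0.0564) or mCherry replicate 1 (adjusted p = 0.0519) and held in the other 6 such fits. In bone marrow St13 stood at 17.9 ± 2.06 against 18.2 ± 2.36 FPKM (-0.09 ± 0.12, adjusted p = 0.664). The difference between these effects was 0.27 ± 0.13 and did not pass the test (adjusted p = 0.563).

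Stip1, which encodes HOP, the adaptor between HSP70 and HSP90, had groups that did not overlap in either tissue. It stood at 38.6 to 40.7 against 44.3 to 48.5 FPKM in bone marrow (-0.30 ± 0.07, adjusted p = 0.0536) and at 30.6 to 37 against 38 to 47 FPKM in spleen (-0.31 ± 0.09, adjusted p = 0.0656), so it missed the threshold in both. Ptges3, the gene of the HSP90 cochaperone p23, changed by -0.20 ± 0.07 and -0.24 ± 0.07. Cdc37, whose product loads kinases onto HSP90, changed by -0.10 ± 0.08 and -0.10 ± 0.07. Neither gene was called in a tissue.

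Summed over the 7 cochaperone genes, FPKM was 182 to 186 in bone marrow hM3Dq libraries and 206 to 227 in mCherry libraries. In spleen the sums were 162 to 184 against 191 to 219. Virus groups did not overlap in either tissue. The 8 CCT subunits summed to 338 to 352 against 304 to 359 FPKM in bone marrow and 330 to 353 against 325 to 366 FPKM in spleen, so there the groups overlapped. Such sums follow the abundant genes of a class most.

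**Figure D3:**
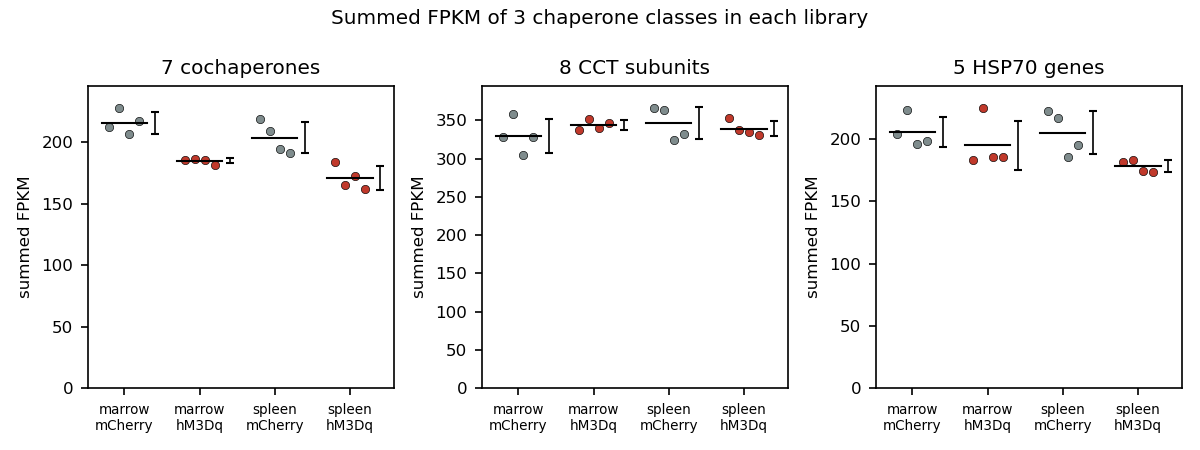
Summed FPKM of the 7 cochaperone genes, the 8 CCT subunit genes and the 5 HSP70 genes in each library (points), with the group mean (line) and SD (bar). The cochaperone sums of the virus groups do not overlap in either tissue, and the CCT sums overlap in both.

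Among HSP70 genes, Hspa8 fell in spleen (chromosome 9, 40800984 to 40810087, plus strand). Its hM3Dq libraries stood at 126, 126, 120 and 123 FPKM and its mCherry libraries at 170, 165, 139 and 146 FPKM, without overlap (-0.34 ± 0.08, adjusted p = 0.0376). The call held without hM3Dq replicate 5 (adjusted p = 0.0448) and was lost in the other 7 fits that left out a library, with adjusted p of 0.0513 to 0.0965. In bone marrow 3 hM3Dq libraries stood at 136 to 137 FPKM and replicate 6 at 175 FPKM, against 157, 173, 152 and 151 FPKM in mCherry libraries (-0.19 ± 0.10, adjusted p = 0.264). Transcripts of other genes, among them predicted copies, hold 38.6% of the 50-base stretches of Hspa8, so its level is uncertain where the counting could split reads. Hspa9, the gene of mitochondrial HSP70, changed by 0.02 ± 0.08 and 0.12 ± 0.06 and Hspa14, a ribosome-associated HSP70, by -0.13 ± 0.08 and 0.08 ± 0.08, with neither called.

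Neither cytosolic HSP90 gene was called. Hsp90aa1, the stress-inducible one, stood at 61.2, 57.1, 56.1 and 64.1 against 77.9, 77.4, 61.3 and 74.8 FPKM in bone marrow, where mCherry replicate 3 overlapped the hM3Dq range. Its change was -0.36 ± 0.10 (adjusted p = 0.0683). Of the 8 fits that left out a library, it was called only without mCherry replicate 3 (adjusted p = 0.034, up to 0.163 in the others). In spleen it stood at 38.5 to 49.5 against 49.9 to 62.5 FPKM, without overlap (-0.37 ± 0.11, adjusted p = 0.0706). Among such fits in spleen it was called only without hM3Dq replicate 5 (adjusted p = 0.0285, up to 0.168 in the others). Hsp90ab1 changed by 0.06 ± 0.10 in bone marrow and -0.14 ± 0.09 in spleen. The ratio of Hsp90aa1 to Hsp90ab1 was 0.171 to 0.219 against 0.253 to 0.271 in bone marrow, without overlap, and 0.135 to 0.162 against 0.145 to 0.182 in spleen, with overlap. Other genes' transcripts share 47.5% of the 50-base stretches of Hsp90aa1 and 3.44% of those of Hsp90ab1. Trap1, the mitochondrial HSP90, was not called (-0.19 ± 0.10 and -0.03 ± 0.08).

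Of the mitochondrial chaperonin pair, Hspd1 (HSP60) changed by -0.29 ± 0.09 in bone marrow (adjusted p = 0.0856) and -0.26 ± 0.10 in spleen (adjusted p = 0.137), and Hspe1 (HSP10) by -0.11 ± 0.11 and -0.18 ± 0.11. Neither passed the test. Their annotated exons overlap by 112 bases on opposite strands, so without a stated strand setting reads there cannot be told apart.

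None of the 6 DNAJ genes was called. Dnaja1, a partner of cytosolic HSP70, had spleen libraries that did not overlap, at 12.4 to 14.3 against 14.6 to 16.1 FPKM (-0.23 ± 0.07, adjusted p = 0.0707). Of the fits that left out a library, it was called only without hM3Dq replicate 5 (adjusted p = 0.0365, up to 0.17 in the others). Dnajb1, a DNAJ gene known to respond to heat shock, changed by 0.01 ± 0.08 in bone marrow and -0.01 ± 0.09 in spleen. Dnajb6, one of the 5 genes with a run of 3 units above, changed by 0.11 ± 0.08 and 0.11 ± 0.07.

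The other regulators of HSP70 showed no call. Bag3, a stress-inducible exchange factor, changed by -0.24 ± 0.11 and -0.19 ± 0.16, and Bag1 by -0.14 ± 0.08 in bone marrow and by 0 to 2 decimals (± 0.10) in spleen. Hsf1 itself changed by -0.06 ± 0.10 and -0.06 ± 0.07. Hsf2, which encodes a second heat shock factor, stood at 3.03, 3.2, 3 and 2.78 FPKM in spleen hM3Dq libraries against 1.94, 2.63, 2.23 and 1.89 FPKM in mCherry libraries, all below them. Its change of 0.44 ± 0.13 missed the threshold (adjusted p = 0.0655). Of the fits that left out a library, it was called only without mCherry replicate 2 (adjusted p = 0.0375, up to 0.162 in the others).

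No CCT subunit was called in either tissue. Their median changes were -0.06 in bone marrow and -0.09 in spleen, and the adjusted p-values ranged from 0.223 to 0.874 and from 0.197 to 0.907. Cct2 stood at 95.2 to 105 FPKM in bone marrow hM3Dq libraries, above 77.5 to 92.4 FPKM in mCherry libraries. After scaling for composition its change was 0.16 ± 0.07 (adjusted p = 0.223).

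For the 5 genes with a run of 3 or more units the changes in bone marrow were -0.91 (Hsph1), -0.49 (Chordc1), -0.29 (Hspd1), -0.11 (Hspe1) and 0.11 (Dnajb6), and in spleen -0.84, -0.37, -0.26, -0.18 and 0.11. Hsph1 was called in both tissues and Chordc1 in spleen. The elements were shown because of Hsph1, so its call is no independent result about them. Of the other called genes, Ahsa1 and Fkbp4 had no such run in their windows, and Hspa8 and St13 had no window. Whether these elements bear on the changes was not tested.

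The difference of the hM3Dq effect between bone marrow and spleen was called for 0 of 37 genes with limma, where 0.0612% of all 17987 genes were called lower and 0.0389% higher. No gene of the 37 had an unadjusted p below 0.05, where 8.90% of all genes did, and none was called by voom on the recovered reads. The differences ranged from -0.33 ± 0.18 for Hsf2 to 0.27 ± 0.13 for St13. For Hsph1 the difference was -0.07 ± 0.18 (adjusted p = 0.954). A missed threshold does not show that the effects were alike.

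Marker genes of cell types and cell states were examined in the same comparisons. Haemoglobin genes took 1.40 ± 1.07% of reads in bone marrow hM3Dq libraries and 2.01 ± 0.656% in mCherry libraries, and 0.961 ± 0.556% against 1.24 ± 0.474% in spleen. All 9 erythroid genes in the files had changes below 0 in both tissues with none called (medians -0.76 and -0.50), with summed FPKM of 280 to 1230 against 876 to 1120 in bone marrow and 65.5 to 558 against 130 to 753 in spleen, and no gene at 0. With the haemoglobin share as a covariate Hsph1 (-0.89 and -0.78) kept its call in both tissues and St13 (-0.37) in spleen. In that fit Ahsa1 changed by -0.36 in bone marrow (adjusted p = 0.0654; -0.39 without the covariate), Fkbp4 by -0.38 (adjusted p = 0.067; -0.40), Hspa8 in spleen by -0.33 (adjusted p = 0.0653; -0.34) and Chordc1 by -0.37 (adjusted p = 0.055; -0.37), so these calls were lost while the changes moved little. All 10 cell cycle genes also had changes below 0 in both tissues, with none called (medians -0.24 and -0.33) and sums of 362 to 519 against 464 to 513 FPKM and 65 to 163 against 102 to 219 FPKM. In spleen 4 of 8 mature B cell genes were called lower (median -0.37), with sums of 1210 to 1370 against 1400 to 1750 FPKM. Ptprc was called lower in spleen (-0.33, adjusted p = 0.0291), where its virus groups did not overlap, and not in bone marrow (-0.15, adjusted p = 0.551). No T cell gene was called, with 7 of 8 below 0 in bone marrow and 6 of 8 in spleen. Of 8 monocyte and macrophage genes 1 was called higher in each tissue (12.5%, against 3.14% and 3.72% of all genes). Another 1 was called lower in spleen (against 4.42%). Of 7 plasma cell genes 2 were called higher in bone marrow (28.6%, median 0.13) and 1 in spleen (14.3%, median 0.33). Their sums were 362 to 480 against 236 to 278 FPKM in bone marrow and 447 to 686 against 337 to 514 FPKM in spleen. Of the immediate early genes, which respond to handling, 2 of 9 were called higher in bone marrow (22.2%, against 3.14% of all genes). Their sums there were 178 to 255 against 133 to 194 FPKM. In spleen 1 of 10 was called higher and 3 lower, with sums of 188 to 247 against 195 to 202 FPKM. Of the neutrophil genes summed above, none was called in bone marrow, with 8 below 0 (median -0.06). In spleen 8 were above 0 (median 0.44), and 1 was called lower. Their sums were 37700 to 53400 against 37100 to 53100 FPKM in bone marrow and 1910 to 4480 against 1500 to 3460 FPKM in spleen. Of 12 ribosome biogenesis and MYC-responsive genes none was called, with 7 below 0 in each tissue (medians -0.01 and -0.05). Apart from the haemoglobin share, the part of the marker genes and of Ptprc in the chaperone changes was not tested.

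Among 81 other chaperone and cochaperone genes, 71 were tested in bone marrow, with a median change of -0.01. There 3 were called higher (4.23%, against 3.14% of all genes) and 1 lower (1.41%, against 1.71%). Besides Fkbp5 the higher ones were Dnajc5, which encodes the vesicle chaperone CSP alpha (0.60 ± 0.08, adjusted p = 0.00704), and Dnajb5 (0.67 ± 0.14, adjusted p = 0.0267). The lower one was Nudc, an HSP90 cochaperone gene (-0.33 ± 0.07, adjusted p = 0.0405), whose call was lost in each of the 8 fits that left out a library (adjusted p = 0.0624 to 0.0918). In spleen 72 were tested, with a median of -0.04. By limma 4 were called higher (5.56%, against 3.72% of all genes) and 0 lower (against 4.42%). At an unadjusted p below 0.05 there were 8 lower (11.1%, against 13.7% of all genes) and 12 higher (16.7%, against 12.8%). Those called besides Fkbp5 were the mitochondrial import factor gene Dnajc15 (0.46 ± 0.09), the mitochondrial protease gene Lonp1 (0.31 ± 0.06) and Dnajc5 (0.34 ± 0.07), with adjusted p of 0.0194, 0.0225 and 0.0293. Of 16 endoplasmic reticulum chaperone genes 1 was called in each tissue (6.25%), both lower. Of all genes 1.71% were called lower in bone marrow and 4.42% in spleen. The 2 were Creld2 in bone marrow (-0.66 ± 0.14, adjusted p = 0.029) and Calr, which encodes calreticulin, in spleen (-0.44 ± 0.07, adjusted p = 0.0117). All 16 had changes below 0 in bone marrow (median -0.25), against 50.7% of all genes. There 10 were lower at an unadjusted p below 0.05 (62.5%, against 11.3% of all genes). In spleen 11 of 16 were below 0 (68.8%, against 51.1%, median -0.12). At that level 5 were lower (31.2%, against 13.7%). Some calls held in only part of the 8 fits that left out a library: Dnajb5 in 2, Creld2 in 2, Lonp1 in 3, Dnajc5 in spleen in 2 and Dnajc15 in 6.

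Between the tissues of mCherry mice, 37 genes were tested and 19 were called higher and 4 lower in bone marrow than in spleen, where 34.5% of all 16943 genes were called higher and 35.0% lower (69.5% in all). The median was 0.30 on the log2 scale against -0.02 over all genes. This split depended on the scaling for composition. With FPKM as deposited 7 (18.9%) were called higher and 13 (35.1%) lower, where 24.1% of all genes were called higher and 47.1% lower, with a median of 0.03 against -0.27 over all genes, a shift of the whole distribution. Relative to the median of all genes the members lay higher under both scalings. The 19 called higher with scaling include Hspa1b (adjusted p = 0.0459), at 13 to 14 reads per library in bone marrow and 7 to 14 in spleen. Its call held in 1 of the 8 fits that left out a library.

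The genes called higher in bone marrow under both scalings were Hspa4l, Hspa14, Hsp90aa1, Bag1, Ahsa1, Fkbp4 and Cct7. Bag1, an exchange factor also known for its link to BCL2, stood at 63.1, 68.2, 68.8 and 66.3 FPKM in bone marrow and at 45.4, 43.5, 41 and 46 FPKM in spleen. Its libraries did not overlap, with a log2 difference of 0.86 ± 0.06 (adjusted p = 1.53e-06), or 0.60 without scaling. Hspa4l, an HSP110 gene, stood at 3.85 ± 0.321 against 2.39 ± 0.383 FPKM (0.93 ± 0.13, adjusted p = 0.000226), or 0.68 without scaling.

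The 4 genes called lower in bone marrow under both scalings were Hsf1, Hsph1, Chordc1 and St13. Hsf1 stood at 8.07, 11.3, 9.83 and 8.63 FPKM in bone marrow and at 20.4, 18.3, 16.6 and 19.7 FPKM in spleen, without overlap (-0.73 ± 0.10, adjusted p = 0.000208; -0.99 without scaling). Hsph1 stood at 3.77 ± 0.377 against 7.35 ± 0.836 FPKM (-0.68 ± 0.12, adjusted p = 0.000643; -0.94 without scaling). St13 was the least stable of the 4: it kept its call without bone marrow replicate 1 or spleen replicate 4 and lost it in the other 6 fits that left out a library (adjusted p = 0.0625 to 0.113). Its change there was -0.17 without bone marrow replicate 3, against -0.27 with all libraries. The HSP110 genes Hsph1 and Hspa4l thus had opposite tissue differences, and Hspa4 had none that passed the test after scaling (0.03 ± 0.07, adjusted p = 0.666; -0.23 without scaling). The tissues also differ in their cells: all 10 neutrophil genes were called higher and all 8 mature B cell genes lower in bone marrow, and the part of cell makeup in these differences cannot be told apart from expression per cell. Without scaling 7 differences changed sign: those of Ptges3 (0.23 to -0.03) and Cct5 (0.18 to -0.08), both called only with scaling, and of Hspa4, Hspa9 (0.04 to -0.22), Hsp90ab1 (0.04 to -0.22), Trap1 (0.10 to -0.17) and Cdc37 (0.12 to -0.15), none of them called with scaling. Of these, Hspa4 (adjusted p = 0.0103) and Hspa9 (adjusted p = 0.0186) were called lower without it.

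**Figure D4:**
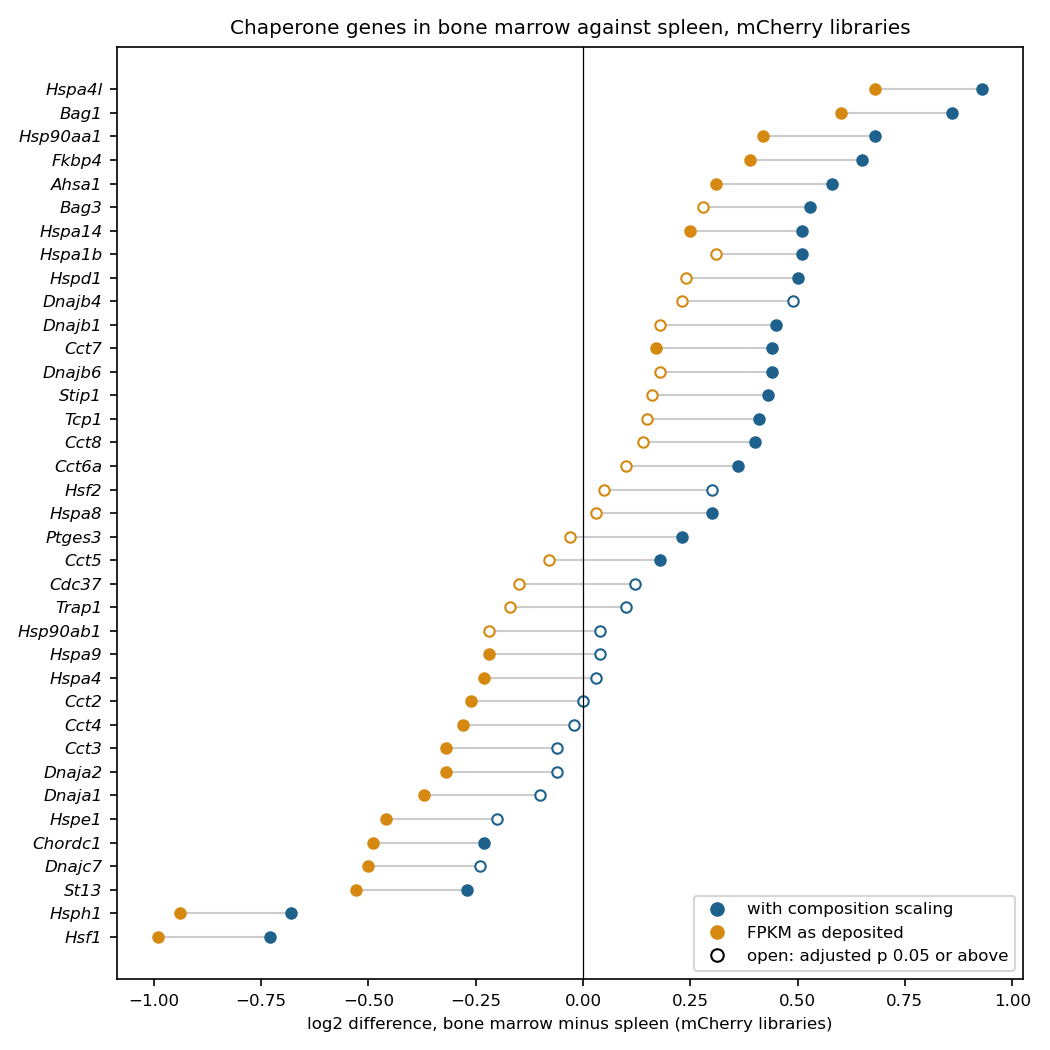
Log2 difference between bone marrow and spleen in mCherry libraries for each tested chaperone gene, with scaling for composition (blue) and with FPKM as deposited (orange), filled at an adjusted p below 0.05. Bag1 (0.86 and 0.60) and Hspa4l (0.93 and 0.68) lie highest and Hsf1 (-0.73 and -0.99) lowest under both scalings, and the values without scaling all lie to the left.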

How the data were processed

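RNA of 16 libraries was selected for poly(A), per the labels' protocols. The submitters' processing notes name CASAVA 1.9, STAR 2.6.1a, featureCounts, edgeR 3.28.1 and the build GRCm38. The annotation release, and whether counting used strand, was not given in the sources used here. Per library the authors deposited 1 table of FPKM, with no filter and no composition scaling visible in the values. Symbols came from GENCODE M21 through Ensembl identifiers, for 49326 genes. FPKM times exon length fell within 0.01 of whole reads for 27922 of 31954 genes above 0 (87.4%), and another length was used for 4031. Recovered reads served the filter, the scaling and voom.

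FPKM was divided by TMM factors (a reimplementation, trims of 30% and 5%), 0.1 was added and log2 taken, so fold changes of low genes are understated. The filter kept genes with 10 reads or more in 4 or more of the libraries compared. All kept genes entered limma (version 3.58.1, in R 4.3.3) with a trend, two-sided, with Benjamini-Hochberg adjustment and calls at an adjusted p below 0.05. Errors of log2 changes are limma's standard errors with 4 libraries per group; FPKM is given as deposited, as mean ± SD. The procedure was tested on simulated data. Correlations of log2 FPKM between replicates were 0.9661 to 0.9859, and none was a copy of another. Whether replicates are separate mice is not labelled beyond the submitters' wording, so p-values measure the spread between these libraries.

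The members and lists were chosen with earlier results of these data known. Named genes are all 38 members, Fkbp5 and up to 4 called genes per comparison and direction of the other chaperone lists, by smallest p. Shared sequence was counted as 50-base stretches of M21 transcripts found in other genes' transcripts. Alternatives were pseudocounts of 1 and 0.01, no scaling, median-of-ratios scaling, no filter, an FPKM filter of 1, robust spread, a haemoglobin covariate, 1 fit of all 16 libraries, a replicate block, each library left out and, added after the data were seen, voom. Tables and plots were made in Python 3.11.15 with matplotlib 3.10.9, pandas 2.3.3 and numpy 2.4.6.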

Additional observations from a re-analysis of the deposited data

Results flagged for a closer look

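Of 152 sets of 4 libraries (38 genes in 4 groups), 7 held a library far from the other 3 in FPKM, where chance gives about 1 in 20. Hspa8 stood at 175 FPKM in bone marrow hM3Dq replicate 6, against 136 to 137 in the others. Cct7 stood at 23.0 FPKM in bone marrow hM3Dq replicate 7 (others 21.1 to 21.3). In bone marrow mCherry, St13 was low in replicate 3 at 14.6 FPKM (others 19.2 to 19.5) and Dnajb1 in replicate 1 at 15.5 FPKM (others 17.2 to 17.5). In spleen mCherry replicate 1, Trap1 stood at 24.2 FPKM (others 19.8 to 20.2) and Bag3 at 3.34 FPKM (others 2.67 to 2.77). Hspa14 stood at 14.1 FPKM in spleen hM3Dq replicate 6 (others 12.7 to 12.9). Without replicate 6 the change of Hspa8 in bone marrow was -0.28 (adjusted p = 0.135), and without replicate 3 that of St13 was -0.19 (adjusted p = 0.28), so neither was called.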

How the results depend on the processing

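Of the 3 genes called in bone marrow and the 4 in spleen, the counts were 1 and 2 without a filter on low values, 1 and 2 with the haemoglobin covariate, 6 and 10 in 1 fit of all 16 libraries, and 6 and 6 with voom. Both of the last 2 settings also called Hsp90aa1 and Stip1 lower in both tissues, near the threshold (adjusted p = 0.0244 to 0.049). The fit of all 16 libraries called Hsf2 higher in spleen (adjusted p = 0.0489). Leaving out 1 library gave 1 to 3 in bone marrow and 1 to 8 in spleen. In bone marrow 1 was left without hM3Dq replicate 6 or 8 or mCherry replicate 2 or 4; in spleen 1 was left without hM3Dq replicate 8 or mCherry replicate 1, and 2 without hM3Dq replicate 6 or 7 or mCherry replicate 3 or 4. Other settings stayed within 1.5 times of these counts. Over the fits that left out a library, 1.7% to 4.49% of all genes were called in bone marrow and 2.44% to 10.2% in spleen. With all libraries the shares were 4.85% and 8.14%. In each tissue the fits with 1 member called had the lowest shares of all genes. The spleen fit with 8 had the highest. For voom, the fit of all 16 libraries, the fit without a filter and that with the haemoglobin covariate no share of all genes is given. Those counts lack this comparison and cannot be read as results about the members. The tissue comparison called 20 to 23 genes over all settings and the difference between tissues 0. The difference for Hsph1, -0.07, changed sign with a pseudocount of 1 (0.01) and over the fits that left out a library (-0.16 to 0.04). Without scaling 7 differences between the tissues changed sign, among the called genes those of Ptges3 (-0.03) and Cct5 (-0.08). The calls of Ahsa1 in bone marrow (adjusted p = 0.0724) and Chordc1 in spleen (adjusted p = 0.0598) also ended without scaling. The cause of these shifts was not tested. Replicate numbers recur across tissues. The deviations of all 8 same-numbered pairs correlated positively (0.037 to 0.338), but only 4 above 0.1. Pairing was to be taken only where all 8 did, so it was not. That 7 of 8 marrow libraries correlated best with their own number is a hint from the data that the numbers may be shared. A replicate block gave 0 calls for the difference and 22 between the tissues. No paired analysis was possible within a tissue because the virus groups share no number. Depth limits Hspa1a and Hspa1b, with at most 11 and 17 reads.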
